A study of Solanum lycopersicum with 4 samples.

Results

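FUL1 (Solyc06g069430.2), FUL2 (Solyc03g114830.2), MBP10 (Solyc02g065730.1) and MBP20 (Solyc02g089210.2) are the FRUITFULL-clade MADS-box genes of tomato, Solanum lycopersicum. They were chosen by identifier, matched on the first 14 characters, and make up 4 of the 34722 genes in the deposited table. RNA sequencing was used to measure them in shoot apical meristems, the dividing tip of the shoot that first makes leaves and then flowers. Transitional meristems, from wild-type plants passing to flowering, gave 2 libraries, replicates A and B. Vegetative meristems, from wild-type plants after 6 leaves had been made, gave replicates C and D. All plants were greenhouse seedlings of 2 to 12 days, fixed in acetone before dissection, and no group carried a mutation or a treatment. How many meristems went into a library, and whether the replicates are separate sets of plants, the labels do not say. The p-values therefore reflect only the spread between these libraries, which may be technical. In limma part of that spread is taken from other genes.

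MADS-box genes encode transcription factors that bind DNA in pairs and larger complexes and set the identity of meristems and floral organs. The FRUITFULL genes are relatives of APETALA1. In Arabidopsis, FRUITFULL is switched on in the shoot tip as flowering begins, promotes flowering, and later patterns the fruit. Tomato has a pair of genes in each of its FRUITFULL subclades: FUL1 and FUL2 in euFULI, both known for roles in fruit ripening, and MBP10 and MBP20 in euFULII. The comparison of the stages addresses how expression in the meristem differs once flowering begins, and for these genes it asks from what level each started, how far it moved and how the clade total was divided.

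The identifiers carry no names in the deposited table, and the pairing with gene names is that of published tomato nomenclature. RefSeq's gene table for tomato (assembly SLM_r2.1) holds 4 of the 4 names, each on the chromosome that its identifier gives: FUL1 on chromosome 6, FUL2 on chromosome 3, and MBP10 and MBP20 on chromosome 2. RefSeq shows 1 uncharacterised gene overlapping FUL1 and none overlapping FUL2, MBP10 or MBP20. The treatment of strand, of overlapping genes and of reads shared by close relatives is not stated, so reads near the overlap and reads common to clade members are uncertain.

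The libraries held 16141074 to 23043526 reads in genes. Values are normalised counts, for which the authors divided the counts of each library by its size factor. Of 9 identifiers listed for meristem genes of the WUSCHEL, CLAVATA and KNOX classes 9 had reads, with summed levels of 14904 and 13797 normalised counts in the transitional libraries A and B and of 18326 and 17334 in vegetative C and D.

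Expression of FUL1, FUL2, MBP10 and MBP20 rose at floral transition. All 4 passed the filter on low values (mean 5 or more normalised counts), and 4 of 4 were called higher (limma on log2(value + 1), Benjamini-Hochberg adjusted p under 0.05 over 19607 genes, n = 2 per group), where 2.70% of the tested genes were called higher. In 4 of 4 both transitional values lay above both vegetative values, as they did in 25.0% of the tested genes. The members were chosen with earlier results of these data known, so neither count is an independent test. MBP10, with no vegetative read, passed the filter through its transitional values alone, so in both counts it could not have been lower. The median log2 change of the clade was 2.93, with MBP10 at its fitted value or set against 3 reads over both vegetative libraries. It had to be the same in both, because the median rests on FUL1 and MBP20 whenever MBP10 lies above them. Over all genes tested the median was 0.0052. The rises were unequal, from about 2-fold for FUL2 to about 9-fold for MBP20, and MBP10 had no read before the transition. In bulk samples like these, more cells expressing a gene and more RNA per cell cannot be told apart. With vegetative replicate C left out, or D, limma called 0.00% of genes, and none of the 4 members, higher, with 1577 genes at an unadjusted p under 0.05 without C and 1867 without D. Without the filter on low values it called 0.0250% of genes higher, again with none of the 4.

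**Figure D1:**
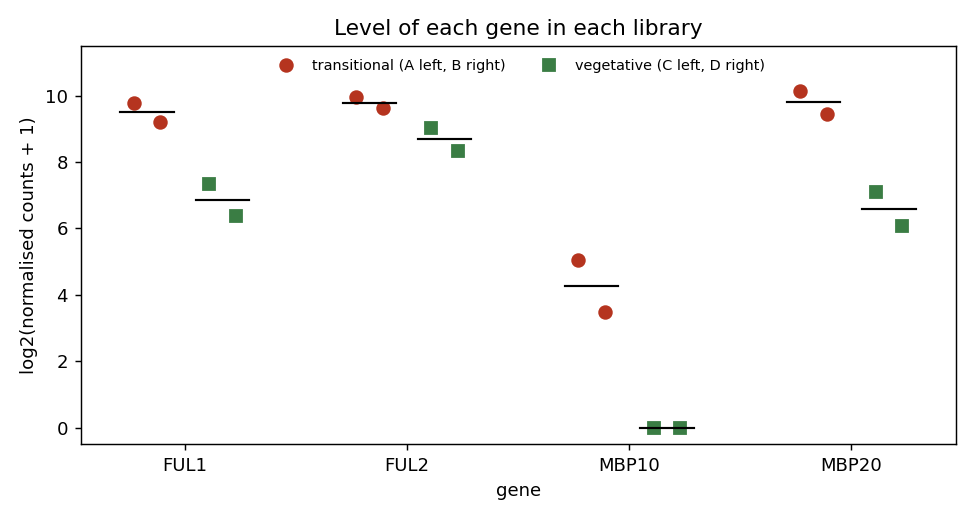
Level of each clade gene in each library on the log2(normalised counts + 1) axis, with transitional libraries as circles, vegetative libraries as squares and the group means as lines. Transitional values lie above vegetative values for every gene, the gap is narrowest for FUL2, and both vegetative values of MBP10 are 0.

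FUL2, whose Arabidopsis relative acts in flowering and fruit, was already well expressed in vegetative meristems. It stood at 996 and 784 normalised counts in the transitional libraries A and B and at 523 and 323 in vegetative C and D. The groups did not overlap, but the lowest transitional value was only 1.50 times the highest vegetative value. FUL2 averaged 890 ± 150 normalised counts in transitional and 423 ± 141 in vegetative meristems (SD, n = 2 each), a rise of 1.10 on the log2 scale (SE 0.22, 95% interval 0.58 to 1.63, limma adjusted p = 0.0438). This adjusted p lay close to the threshold, and it was 0.0504 by edgeR's quasi-likelihood test on the whole reads recovered from the deposited values, where FUL2 was not called and 2.47% of genes were called higher. By edgeR 2 of the 4 genes, FUL1 and MBP20, were called. The same 2 were called by limma without transitional replicate A, where the rise of FUL2 was 0.93 log2 (adjusted p = 0.107) and 3.29% of genes were called higher.

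FUL1, also known as TDR4 and studied mostly in ripening fruit, started lower and moved further. It stood at 882 and 594 normalised counts in the transitional libraries A and B and at 160 and 82.2 in vegetative C and D. The lowest transitional value was 3.71 times the highest vegetative value. FUL1 averaged 738 ± 204 normalised counts in transitional and 121 ± 55.1 in vegetative meristems (SD, n = 2 each). Its rise was 2.65 on the log2 scale (SE 0.31, 95% interval 1.91 to 3.38, limma adjusted p = 0.00691), or 6.26-fold, and 168th from the top among the changes of the 19607 genes tested.

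MBP20, of the euFULII subclade, made the steepest rise among the 3 genes with reads in every library. It stood at 1139 and 702 normalised counts in the transitional libraries A and B and at 137 and 66.5 in vegetative C and D, so that its lowest transitional value was 5.14 times its highest vegetative value. MBP20 averaged 921 ± 309 normalised counts in transitional and 102 ± 49.5 in vegetative meristems (SD, n = 2 each). Its rise was 3.22 on the log2 scale (SE 0.35, 95% interval 2.40 to 4.03, limma adjusted p = 0.00529), or 9.29-fold, 112th from the top.

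MBP10, the other euFULII gene, was detected in transitional meristems alone and at a low level there. It had 32 and 10 reads in transitional A and B, or 32.4 and 10.1 normalised counts, and no read in vegetative C or D. The exact 95% counting intervals were 22.2 to 45.8 normalised counts in A and 4.85 to 18.6 in B, and they did not overlap. A count of 0 allowed up to 4.14 normalised counts in C and 2.93 in D, the value of 3 reads. These intervals and limits cover counting error only. Set against 3 reads over both vegetative libraries, the transitional mean of MBP10 was 12.4-fold higher. This figure allows for counting error in the vegetative libraries only, and transitional A and B differed 3.21-fold. The fitted log2 change of 4.27 (SE 0.79, limma adjusted p = 0.0327) depends on the pseudocount and is no bound. MBP10 was not called with a pseudocount of 5 (adjusted p = 0.0548), by edgeR (0.0651), by limma-voom (0.0553) or in limma without transitional replicate A (0.0536), and over its alternatives with all 4 libraries the adjusted p lay between 0.00651 by DESeq2 and 0.1 without the filter.

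**Figure D2:**
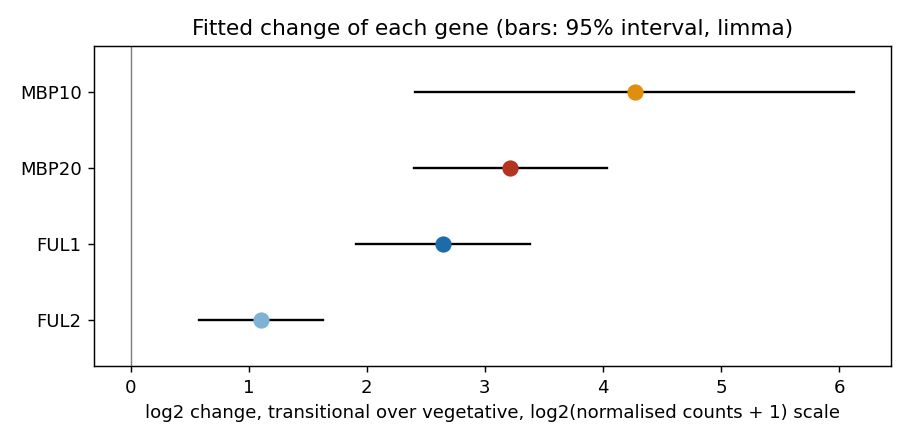
Fitted log2 change of each clade gene, transitional over vegetative, on the log2(normalised counts + 1) scale, with 95% intervals from limma. MBP10, at 4.27, has the widest interval, and the intervals of MBP20 (2.40 to 4.03) and FUL2 (0.58 to 1.63) do not meet.

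The 4 genes did not keep their proportions. Shares of the clade total are shares of normalised reads, not divided by transcript length. They are therefore compared between stages for 1 gene or 1 subclade at a time. The clade total was 3050 and 2090 normalised counts in the transitional libraries A and B and 820 and 471 in vegetative C and D. The total was thus 4.06-fold higher at the transition on the geometric mean.

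FUL2 held 32.7% and 37.5% of the clade's reads in transitional A and B and 63.8% and 68.5% in vegetative C and D. Its share was 35.1% ± 3.42 in transitional and 66.1% ± 3.30 in vegetative meristems (SD, n = 2 each), a difference of -31.0 percentage points (transitional minus vegetative), although its own level was higher. MBP20 held 37.4% and 33.6% of the reads in transitional A and B and 16.7% and 14.1% in vegetative C and D, a difference of 20.1 points. FUL1 held 28.9% and 28.4% in transitional A and B and 19.5% and 17.4% in vegetative C and D, a difference of 10.2 points. The stages did not overlap for any of these shares. MBP10 held 1.06% and 0.484% in the transitional libraries and none of the reads in the vegetative ones.

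By subclade, the euFULI pair held 63.8% ± 3.07 of the reads in transitional and 84.6% ± 1.81 in vegetative meristems (SD, n = 2 each). The euFULII pair held the remainder, 36.2% ± 3.07 in transitional and 15.4% ± 1.81 in vegetative meristems, nearly all of it MBP20. Of the 1924 normalised counts by which the mean clade total differed, MBP20 supplied 42.6%, FUL1 32.0%, FUL2 24.3% and MBP10 1.11%. Like the subclade shares, these parts are of reads not divided by transcript length. They give no order of the genes by number of transcripts. A comparison of 2 libraries with 2 cannot give a two-sided exact permutation p below 0.333, and 0.333 was the p of the clade total and of each of the 4 shares.

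**Figure D3:**
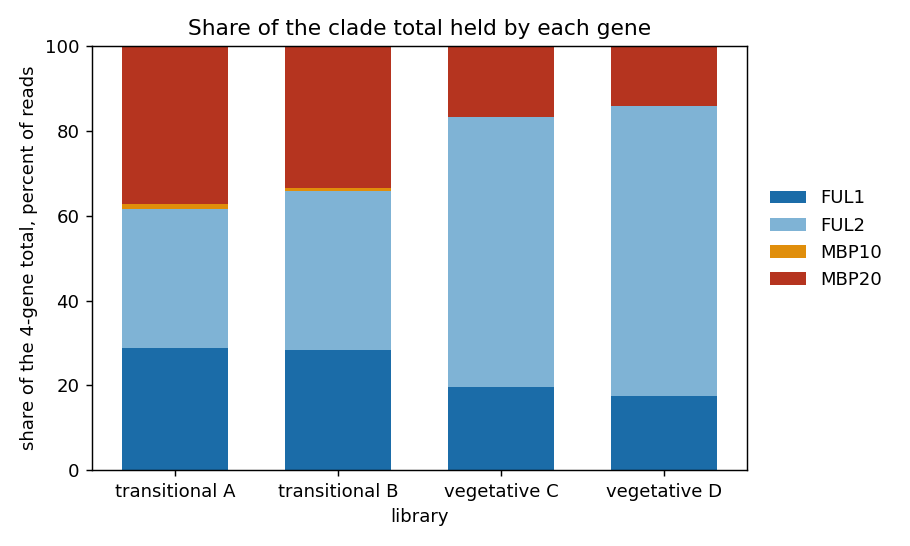
Share of the 4-gene total held by each gene in each library, in percent of normalised reads and not divided by length. FUL2 holds 32.7% and 37.5% in the transitional bars and 63.8% and 68.5% in the vegetative bars, with MBP20 and FUL1 larger in the transitional bars.

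Without a pseudocount, the ratio of one gene to another within a library does not depend on its scaling. With the pseudocount of 1 this nearly holds for FUL1, FUL2 and MBP20, but not for MBP10, which had no vegetative read. In all, 6 ratios were compared. On the log2 scale with a pseudocount of 1, the ratio of MBP20 to FUL2 was 0.19 and -0.16 in transitional A and B and -1.93 and -2.26 in vegetative C and D. MBP20 thus changed 4.32-fold more than FUL2. The ratio of FUL1 to FUL2 was -0.18 and -0.40 in transitional A and B and -1.70 and -1.96 in vegetative C and D, a 2.91-fold difference in change. MBP20 and FUL1 were closer: their ratio was 0.37 and 0.24 in transitional A and B and -0.23 and -0.30 in vegetative C and D, a 1.48-fold difference. These 3 differences in change, 2.11, 1.54 and 0.57 on the log2 scale, exceeded the pooled SD of the ratios within a stage, which was 0.24, 0.17 and 0.07. With the pseudocount of 1 the stages did not overlap in any of the 6 ratios. The ratio of MBP10 to MBP20 was separated only narrowly, at -5.98 in transitional B and -6.08 in vegetative D. Each exact permutation p, raw or adjusted over the 6, was 0.333, the smallest the design allows. For the 3 ratios with MBP10 the pseudocount set the size, and with a pseudocount of 5 the sign turned against MBP20 and against FUL1, so no order of MBP10 among the others is given.

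The replicates of a stage were far apart for these genes, and moved together across them. FUL1 was 1.95 times, FUL2 1.62 times and MBP20 2.05 times as high in vegetative C as in vegetative D. Among 14600 genes averaging 100 or more normalised counts, the log2 difference between C and D had an SD of 0.187, and 33 genes were over 2-fold apart. Ranked by how far C exceeded D among those genes, MBP20 was 16th, FUL1 20th and FUL2 36th. In transitional meristems FUL1 was 1.48 times, FUL2 1.27 times, MBP20 1.62 times and MBP10 3.21 times as high in A as in B. Between A and B the SD was 0.274 log2, and MBP20 was 157th, FUL1 279th and FUL2 1005th. limma draws each SE partly from the spread of other genes (2 residual and 5.18 prior degrees of freedom). For FUL1, FUL2 and MBP20 the SEs, intervals and adjusted p-values are therefore smaller or narrower than their own replicates alone would give.

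Genes called higher at the transition were not, as a rule, higher in replicate C. Of the 384 genes called higher and averaging 100 or more normalised counts, 45.6% stood higher in C than in D, with a median log2 difference of -0.02. In the same 384 genes 70.6% were higher in A than B, with a median of 0.13. Other lists differed between the replicates too. All 9 meristem identifiers stood higher in C than in D, whereas 2 of 15 tested leaf photosynthesis identifiers did, and transitional A exceeded B in 15 of 15 photosynthesis identifiers. The part of tissue makeup in the differences of the clade between replicates was not tested. The rise of FUL1 was 3.12 log2 without vegetative C and 2.17 without D, that of FUL2 1.45 and 0.76, and that of MBP20 3.73 and 2.70.

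**Figure D4:**
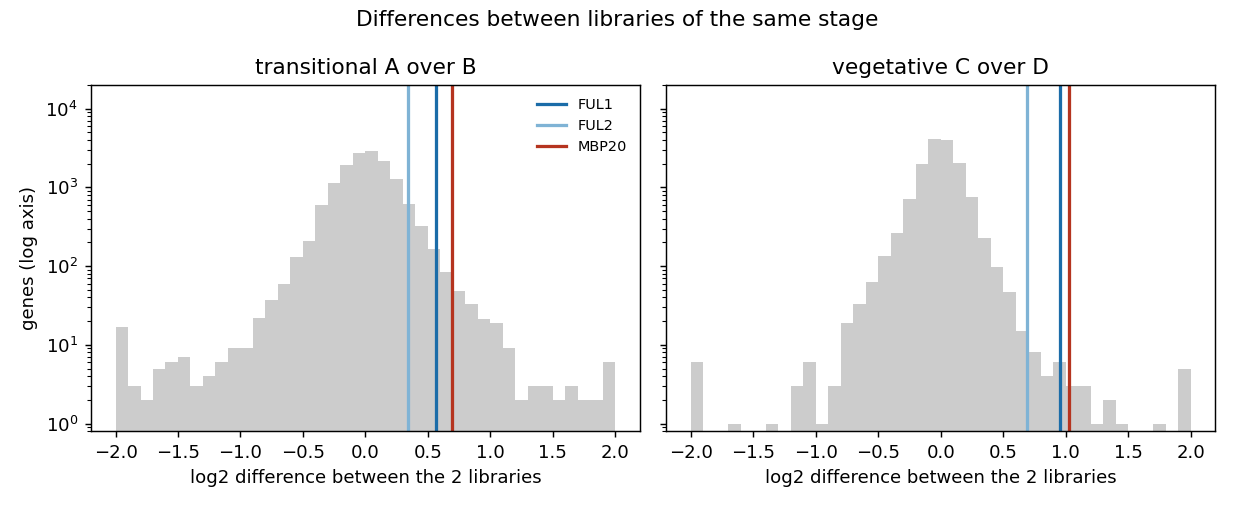
Log2 difference between the libraries of a stage for 14600 genes averaging 100 or more normalised counts (grey, log axis, end bins holding all values beyond 2 and -2), with coloured lines for FUL1, FUL2 and MBP20. In vegetative meristems the lines for FUL1 and MBP20 stand near 1, in the far tail, and in transitional meristems the lines lie nearer the bulk of genes.

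FRUITFULL-clade genes lie beside SEPALLATA-class MADS-box genes, which encode partners in floral complexes, at a pair of places in the tomato genome. RefSeq lists TM29 directly before MBP20 and MADS1 directly after FUL2, and no MADS-box name beside FUL1 or MBP10. RefSeq does not pair its names with the identifiers of the deposited table, so the neighbours are described here by identifier number alone. Of the 8 identifiers numbered directly before or after a clade member, 7 were tested and 1 was without a read in every library. Of those tested 1 was called, in the upward direction, where 2.70% of all tested genes were called higher and 1.19% lower.

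The neighbour called was the identifier directly after FUL2. It stood at 90.2 and 85.0 normalised counts in the transitional libraries A and B and at 1.38 and 0 in vegetative C and D, the vegetative values resting on 1 read. Its transitional values alone carried it past the filter, so it could not have been called lower. Summed reads gave a transitional to vegetative ratio of 153 (exact 95% interval 27.1 to 6079, counting error only, limma adjusted p = 0.00335). FUL2 itself, next to it, had 523 and 323 normalised counts in the same vegetative libraries. The identifier directly before MBP20 had 8.11 and 16.2 normalised counts in the transitional libraries A and B and no read in vegetative C or D. Its transitional mean was 7.07-fold higher against 3 reads over the vegetative group, allowing for vegetative counting error only. It was not called (limma adjusted p = 0.0517). The identifier after MBP20, in contrast, stood at 704 and 683 normalised counts in the transitional libraries A and B and at 680 and 741 in vegetative C and D.

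**Figure D5:**
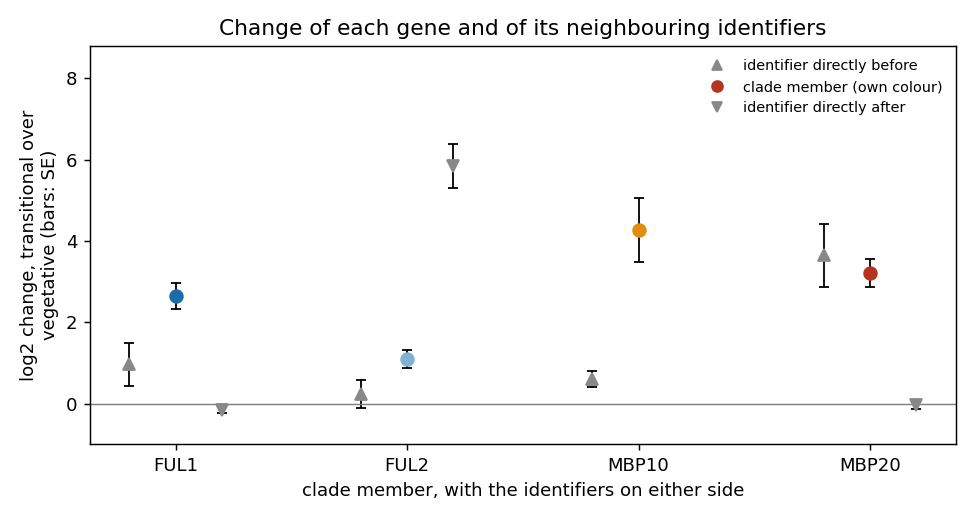
Log2 change (transitional over vegetative, log2(normalised counts + 1) scale, bars SE) of each clade gene and of the identifiers numbered directly before and after it, and the untested one beside MBP10 is not drawn. The identifier after FUL2 and the one before MBP20 have changes of 5.84 and 3.65, and the other neighbours lie between -0.15 and 0.97.

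The profile most like each clade gene was sought over the 4 libraries by the root mean square difference in log2(value + 1). The closest non-member to FUL2 was Solyc08g080460.1, with a difference of 0.22 log2. It stood at 920 and 774 normalised counts in the transitional libraries A and B and at 403 and 286 in vegetative C and D. The closest to MBP20, and also to FUL1, was Solyc02g077390.1, with differences of 0.23 and 0.32 log2. It stood at 1180 and 778 normalised counts in the transitional libraries A and B and at 183 and 71.4 in vegetative C and D, so it too was more than 2-fold apart between the vegetative replicates. This identifier is among the 6 listed as other regulators of floral transition and inflorescence form. Its rise of 3.05 log2 is counted again in that list and is not a separate observation there.

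Genes that act with or around the FRUITFULL clade were grouped into lists of identifiers known from the tomato literature, without a table to check them against. The list of other MADS-box genes repeats the identifiers directly after FUL2, called higher, and directly before MBP20, so these are not separate observations. With 1 vegetative read and none, both passed the filter through their transitional values. Neither could have fallen, and both enter the counts and the median of that list. Of 9 tested identifiers of other MADS-box genes of inflorescence and flower, from the APETALA1, SEPALLATA, SOC1, SVP and AGL6 clades, 5 rose and none fell, against 2.70% of all tested genes called higher and 1.19% lower. Their median log2 change was 3.81, with 6 called higher without transitional replicate A, where 3.29% of all tested genes were, and 4 without B, where 3.96% were. Of 6 other regulators of floral transition and inflorescence form 2 rose, by 3.05 and 5.86 on the log2 scale, and none fell, with a median of 2.92, although 1 fell without transitional B. SBP-box genes, whose relatives in Arabidopsis activate FRUITFULL, moved little: 1 of 12 tested rose by 0.39 and 1 fell by 0.65 on the log2 scale, and the median was 0.11. Without transitional A, or without B, 2 SBP-box identifiers were called higher. Of the 9 meristem identifiers none rose and 2 fell, with a median of -0.23. Without transitional A, where 2.44% of all tested genes fell, 4 did, and without B, where 2.21% did, 3.

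Markers of other tissue and of handling were read beside the rise of the clade. With all libraries, 2.70% of all tested genes were called higher and 1.19% lower. Of 7 B and C class identifiers, genes of petals, stamens and carpels, 4 were without a read throughout. Of the 2 tested 1 rose, by 3.79 log2, and without transitional A none was called. Their summed level was 690 and 639 normalised counts in the transitional libraries A and B and 639 and 635 in vegetative C and D. Of 15 tested leaf photosynthesis identifiers none was called, with a median log2 change of 0.05 and summed levels of 11281 and 6794 normalised counts in the transitional libraries A and B and 8081 and 10225 in vegetative C and D. Without transitional A 1 of them fell, and without B 2 rose. Wound and jasmonate identifiers moved with the stage: 5 of 10 tested rose and none fell, the median was 1.07, and the summed level was 17508 and 13252 normalised counts in the transitional libraries A and B against 7712 and 8140 in vegetative C and D. The part of wounding or handling in the rise of the clade was not tested.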

How the data were processed

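The deposited values are a signal, in which the authors divided each library's gene counts by a size factor. DESeq2 1.6.3, HTSeq 0.6.1p1 and TopHat2 2.0.10 appear in the submitters' processing notes, and no genome build does. Every value (100%) was a multiple of its library's step (relative tolerance 1e-06), which gave back the whole reads. A mean of at least 5 normalised counts left 19607 genes. The main test, limma 3.58.1 (trend, R 4.3.3) on log2(value + 1) with group as the only term, had 2 residual and 5.18 prior degrees of freedom and called 762 genes. edgeR 4.0.16 on the recovered reads called 692. Alternatives were DESeq2 1.42.0, limma-voom, other pseudocounts, filters and scalings, and leaving out each library. limma and edgeR were tested on simulated data, with 1 low setting of replicate spread for all genes. That test does not cover genes with replicates as far apart as those of the clade, or with counts as low as MBP10. Shares and ratios used exact permutation tests over libraries (SciPy 1.17.1, Python 3.11.15), two-sided. Named are the 4 members and the closest profile to each, limited to 2 identifiers because no table names them. Of 34722 identifiers 0 matched RefSeq. The members and lists were chosen with earlier results of these data known. The lists cover meristem, photosynthesis, wound, SBP-box, other MADS-box, other floral transition, and B and C class genes. The mutant named in the design text is not analysed here.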

Additional observations from a re-analysis of the deposited data

How the results depend on the processing

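No log2 change of a clade gene turned sign in any alternative. FUL1 and MBP20 were called in every alternative except without a filter and without vegetative replicate C or D. Without a filter limma called 7 genes in all and 0 of the 4 members, at the log2 changes of 2.65 for FUL1, 1.10 for FUL2, 4.27 for MBP10 and 3.22 for MBP20. By edgeR 2 members were called, with FUL2 at 1.09 and MBP10 at 7.32 log2 not called. MBP10 was also not called with a pseudocount of 5 (2.25) or by limma-voom (5.01). Leaving out each library gave 2.17 to 3.12 for FUL1, 0.76 to 1.45 for FUL2, 3.47 to 5.06 for MBP10 and 2.70 to 3.73 for MBP20, with 0 to 4 members called, where the remaining library of the reduced stage takes its spread from the other stage. Without transitional A 2 members were called, with FUL2 at 0.93 and MBP10 at 3.47 log2 not called, and without vegetative C or D none of the 4 was. A filter of 1 CPM in 2 libraries left MBP10 untested. When each library was left out, the share of MBP10 was 0.484 (without transitional A) to 1.06 (without transitional B) percentage points higher at the transition. Leaving out each library gave share differences of -33.5 to -28.6 points for FUL2, 18.2 to 22.0 for MBP20 and 9.13 to 11.2 for FUL1. The clade total was 1.62 to 2.42 log2 higher, and 2.02 to 2.03 when rescaled. With 2 libraries per stage, leaving 1 out always moves the stage mean by less than the SD, so these shifts are no test of stability. Alternatives for the ratios were added after the data were seen. The log2 difference in change of MBP10 against MBP20 was 2.00 with a pseudocount of 0.5 and -0.91 with 5, against FUL1 2.57 and -0.35, and against FUL2 4.12 and 1.15, because MBP10 had no vegetative read. Shares per coding length were not run, since no lengths of the transcripts were at hand. No paired analysis was possible because the titles share no replicate letter between the stages. The low counts of MBP10, with no vegetative read, leave its fold without a firm estimate.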
